A study of Mus musculus with 2 samples.

Results

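The genes of collagens, laminins and the meningeal matrix were examined in optic nerve and tract, a white matter tissue, from CD47 KO and WT mice. Members were chosen by gene symbol, as 37 genes of known role in fibrillar matrix, in basement membranes or in the meninges, out of 18193 genes with a probe set on the array. The rule used no measured value of the arrays, but the genes and sets were chosen when earlier results of these data were known. Of the 37 genes, 36 had a probe set, 35 gave a signal above background in at least 1 array and 33 in both, and Fbn1 was not analysed here. CD47 KO mice lack CD47, a widely expressed membrane protein that binds SIRPα on microglia, and WT mice carry the intact gene; the CD47 KO allele is a constitutive null (Cd47-/-). All animals were male, the CD47 KO mice 12 to 15 weeks and the WT mice 13 to 15 weeks of age, and they received no treatment. RNA was pooled within each genotype and each pool was hybridised to 1 array. The number of animals is given as 4 CD47 KO and 5 WT mice in the series description and the methods of the study, but as 5 CD47 KO and 4 WT mice in the labelling protocol.

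The optic nerve is wrapped in meninges, whose fibroblasts lay down a matrix of collagen fibrils coated with small leucine-rich proteoglycans. Basement membranes are thin sheets of collagen IV, laminin and nidogen that lie beneath endothelium, around pericytes, under the meninges and against the end-feet of astrocytes. The set of fibrillar and meningeal genes used here held 17 genes, namely the fibrillar and fibril-associated collagens, the small leucine-rich proteoglycans and 3 genes of meningeal cells. The set of basement membrane genes held 11, namely 4 collagens, 5 laminin chains and 2 nidogens. Collagen VI, the fibulins, fibronectin, Sparc and Mgp were described apart from both sets.

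Values are MAS5 signal in arbitrary units, and each gene is given by its brightest probe set. A signal under 106, the median of both arrays together, was raised to that floor, and the log2 ratio is CD47 KO over WT throughout. A ratio with 1 array under the floor is a bound. The targeted gene Cd47 was lower in CD47 KO by its brightest probe set, with 1346 in CD47 KO and 3928 in WT (log2 ratio -1.54), and by 2 further ones with both signals above the floor (-1.34 and -1.36). Which part of the gene these probe sets cover was not examined. With 1 array per genotype there was no test, no SD and no p-value, so that every difference below compares 2 pools. A gene with more than 1 probe set was in effect measured again on the same RNA. Over 11653 pairs of such probe sets in 4740 genes, the log2 ratios of a pair differed with an SD of 0.36, and 95% of pairs differed by less than 0.74. This spread holds no variation between mice. In RNA from whole tissue, fewer cells of a type and less RNA per cell cannot be told apart.

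Most of these matrix genes had a lower signal in the CD47 KO pool, by small amounts. Of the 35 measured members 26 had a log2 ratio below 0, where 53.2% of all 12473 measured genes did, and 9 were above 0, where 46.8% of all genes were. Their median was -0.18, beside -0.02 for all measured genes. The number over 1.2-fold lower was 16, where the share of all genes was 18.6%, and 3 members were over 1.2-fold higher, where the share of all genes was 14.5%. Past 1.5-fold there were 2 lower members (4.68% of all genes) and 1 higher member (4.02%). None was over 2-fold in either direction, a size reached by 2.03% of all genes (0.818% lower and 1.21% higher). Within the groups of members, the direction was even for the 5 small leucine-rich proteoglycans and the 2 collagen VI genes. Further small and large proteoglycans outside the members went both ways. Of 5 measured, 3 were below 0 and 2 above (53.2% and 46.8% of all genes), with a median of -0.01. Among the members, the largest ratios above 0 were those of Col11a1, Nid2, Fbln2 and Sparc. Of these only Sparc had signals far above the floor, and the ratio of Fbln2 was a bound.

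**Figure D1:**
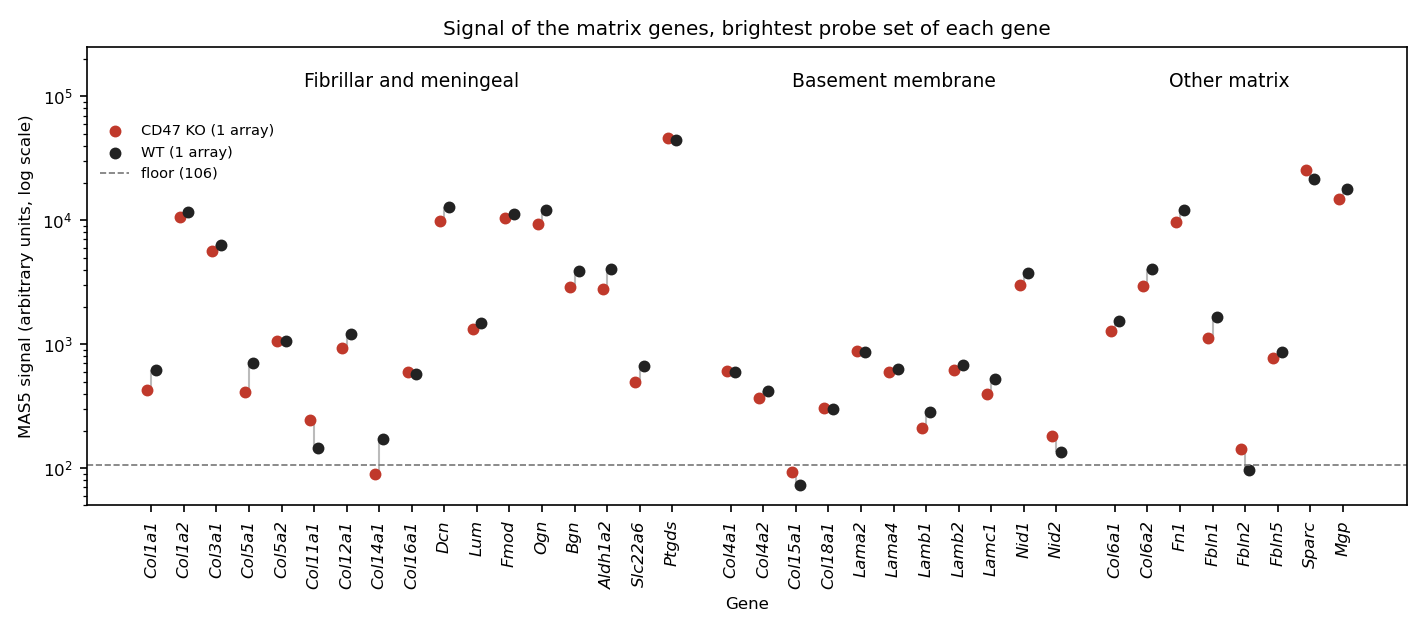
MAS5 signal (vertical, log scale) of the 36 matrix genes with a probe set, with 1 red point for the CD47 KO array and 1 black point for the WT array; the dashed line is the floor at 106. In most fibrillar and meningeal genes the red point lies below the black one, as for Dcn (9955 and 12866), whereas in several basement membrane genes the points coincide, as for Lama2 (883 and 873).

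The chains of collagen I form the main fibrils of connective tissue. Col1a2, the second chain of this collagen, had a signal of 10529.8 in the CD47 KO pool and 11719.5 in the WT pool (log2 ratio -0.15). Its other measured probe set read 1515 in CD47 KO and 1749 in WT (-0.21), so that both placed CD47 KO slightly lower. Col1a1, the first chain, read 429.7 in CD47 KO and 616 in WT (-0.52) by its brighter probe set, but 238 in CD47 KO and 241 in WT (-0.02) by the other. The size of the difference in Col1a1 thus rested on 1 of its 2 probe sets. Col3a1, which encodes collagen III, the partner of collagen I in soft tissue, read 5634 in CD47 KO and 6307 in WT (-0.16), and 319 and 409 in the same order by its second probe set (-0.36).

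Collagen V chains set the diameter of collagen I fibrils. Col5a1 read 409 in CD47 KO and 703 in WT, the lowest ratio among the members (log2 ratio -0.78, 1.72-fold lower). Its second probe set read 297 in CD47 KO and 331 in WT (-0.16), and the median over both was -0.47. The companion chain Col5a2 read 1052 in CD47 KO and 1069 in WT (-0.02), with -0.24 by its second probe set. The 2 collagen V chains therefore differed from each other by their brightest probe sets and were close to each other by the second ones. Col11a1, a minor fibrillar chain best known from cartilage, went the other way, with 243 in CD47 KO and 145 in WT (0.75, 1.68-fold higher). Its second probe set read 138 in CD47 KO and 91.3 in WT, which is under the floor, so that the ratio of at least 0.38 is a bound. Both Col11a1 signals in WT lay close to the floor. Of all the members, only Col5a1 and Col11a1 had an absolute log2 ratio over 0.74. That value describes differences between 2 probe sets of a gene and is no threshold for a single ratio.

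The promoters of Col1a2 and Col3a1 are shown because these genes of partner collagens were bright and had similar log2 ratios, and that of Col4a2 because its window overlaps that of its neighbour Col4a1. Each is a RefSeq window of GRCm38.p6 of 300 bases, most of them before the annotated start, 5′ to 3′ on the strand of the gene, with the letters CCAAT or their reverse complement ATTGG in capitals. The windows lie at chr6:4505368-4505667 (plus strand) for Col1a2, chr1:45311288-45311587 (plus strand) for Col3a1 and chr8:11312555-11312854 (plus strand) for Col4a2.
Col1a2: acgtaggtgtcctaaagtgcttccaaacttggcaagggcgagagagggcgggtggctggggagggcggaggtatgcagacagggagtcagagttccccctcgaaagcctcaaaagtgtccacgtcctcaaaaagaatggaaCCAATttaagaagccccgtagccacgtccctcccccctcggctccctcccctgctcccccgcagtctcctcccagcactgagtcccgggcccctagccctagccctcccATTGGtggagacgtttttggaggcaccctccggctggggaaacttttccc
Col3a1: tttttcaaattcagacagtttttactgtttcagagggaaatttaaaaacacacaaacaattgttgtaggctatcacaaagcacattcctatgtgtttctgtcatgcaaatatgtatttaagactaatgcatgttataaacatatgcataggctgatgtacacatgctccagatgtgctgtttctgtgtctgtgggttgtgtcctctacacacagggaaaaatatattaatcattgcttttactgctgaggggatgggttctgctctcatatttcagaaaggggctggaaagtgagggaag
Col4a2: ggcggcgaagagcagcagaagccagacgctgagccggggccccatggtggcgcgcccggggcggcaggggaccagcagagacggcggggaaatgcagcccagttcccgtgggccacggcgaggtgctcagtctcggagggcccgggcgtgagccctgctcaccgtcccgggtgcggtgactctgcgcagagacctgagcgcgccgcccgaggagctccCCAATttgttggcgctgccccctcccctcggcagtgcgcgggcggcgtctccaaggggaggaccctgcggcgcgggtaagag
The Col1a2 window held the CCAAT letters 2 times and the Col4a2 window 1 time, while the Col3a1 window held none of them and was the only one of the 3 with the letters TATAAA on either strand. Windows were found for 26 of the 37 genes, 30 in all. CCAAT was in 12 of these 30 windows and in 37.4% of all 32851 windows. TATAAA, or TTTATA on the other strand, was in 2 of the 30 windows and in 13.6% of all. The letters GGGCGG, or CCGCCC on the other strand, were in 17 of the 30 windows (56.7%) and in 35.7% of all. A match of letters does not show a bound factor.

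Fibril-associated collagens sit on the surface of collagen fibrils. Col12a1 read 929.8 in CD47 KO and 1213 in WT (-0.38), with its other probe sets at or below background in at least 1 array. Col14a1 read 90 in CD47 KO, under the floor, and 172 in WT, at least 1.62-fold lower. Its second probe set read 99.6 in CD47 KO and 148 in WT, in the same direction and also a bound. Col16a1 was nearly equal, with 594 in CD47 KO and 576 in WT (0.04).

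The small leucine-rich proteoglycans, which bind collagen fibrils and space them, were lower in CD47 KO for 5 of 5 genes (53.2% of all genes). Their median was -0.36, and 3 genes were over 1.2-fold lower (18.6% of all genes). Decorin (Dcn) read 9955 in CD47 KO and 12866 in WT (-0.37). Osteoglycin (Ogn) read 9361 in CD47 KO and 12031 in WT (-0.36) by one probe set, and 2984 in CD47 KO and 4500.3 in WT (-0.59) by the other. Biglycan (Bgn) had 3 probe sets, with log2 ratios of -0.41, -0.36 and -0.20 and signals of 2908 in CD47 KO and 3862 in WT for the brightest. All measured probe sets of Dcn, Ogn and Bgn thus had CD47 KO below WT. Lumican (Lum) read 1319 in CD47 KO and 1493 in WT (-0.18).

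Fibromodulin (Fmod), which binds collagen I and helps its cross-linking, was measured by 6 probe sets, and CD47 KO was below WT in each. The brightest read 10488 in CD47 KO and 11280.3 in WT (-0.11), and 4 others had log2 ratios from -0.28 to -0.08. The remaining one stood apart with 2445 in CD47 KO and 5989 in WT (-1.29). Its name marks it for possible cross-hybridisation, as do those of 4 of the other Fmod probe sets; the probe set without such a mark read 2338 in CD47 KO and 2683 in WT (-0.20). The 1.21 between the extremes was the widest range within any member, against a median range of 0.20 over the 18 members with at least 2 probe sets that passed the floor in each array.

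Among the genes of meningeal cells, Aldh1a2, which makes retinoic acid from retinaldehyde, read 2789 in CD47 KO and 4019.9 in WT (-0.53, 1.44-fold lower). Slc22a6, the organic anion transporter OAT1, read 500 in CD47 KO and 664 in WT (-0.41), and 235 in CD47 KO and 350.4 in WT (-0.58) by its second probe set. Ptgds, the prostaglandin D synthase made by meningeal cells and also by oligodendrocytes, was not lower. Its probe sets read 45766 in CD47 KO and 44552 in WT (0.04) and 35817 in CD47 KO and 32545 in WT (0.14).

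**Figure D2:**
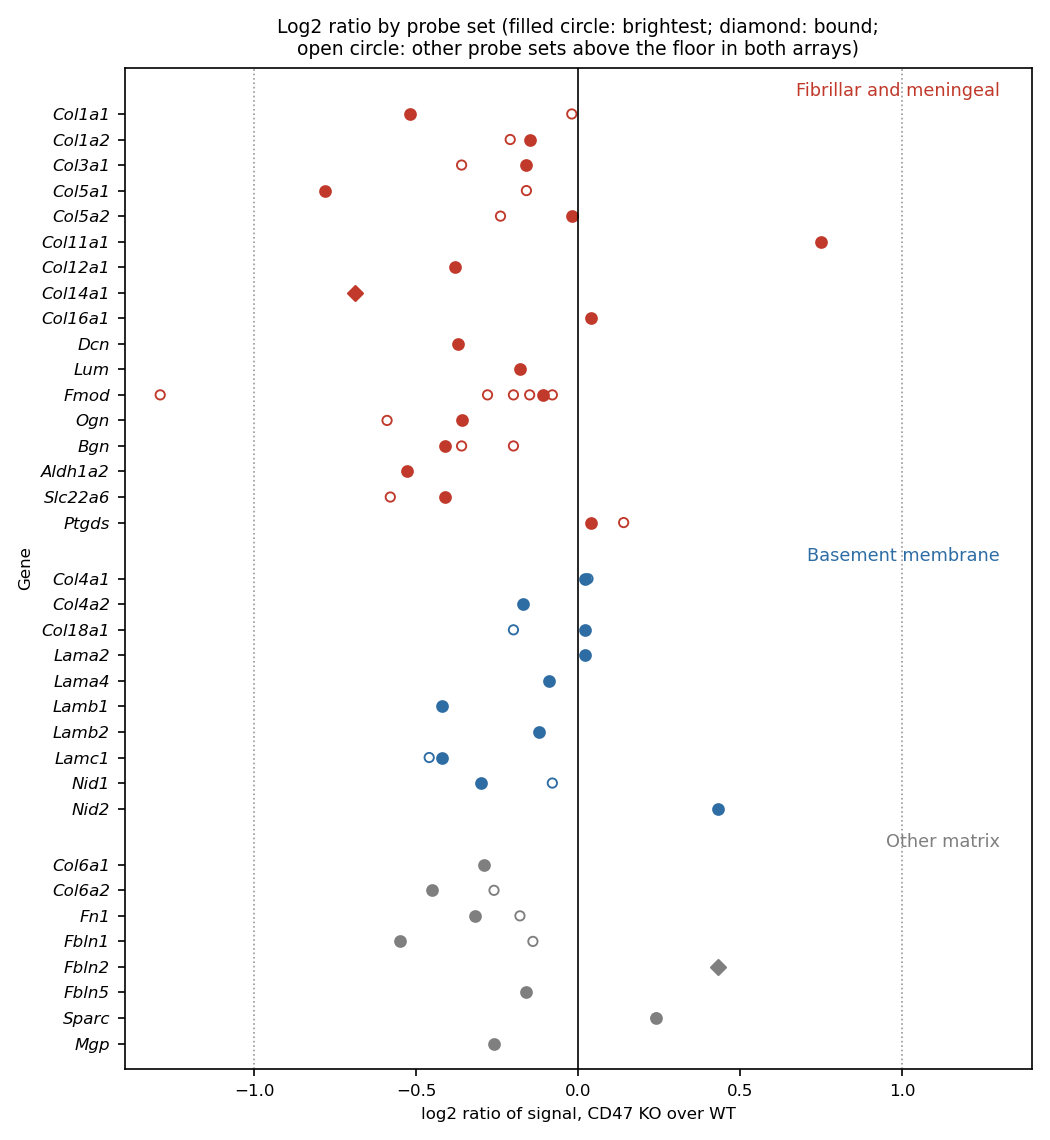
Log2 ratio of signal, CD47 KO over WT (horizontal), for each of the 35 measured matrix genes (vertical). Filled circles are the brightest probe set, diamonds are bounds, open circles are the other probe sets that passed the floor in each array, and dotted lines mark 2-fold. Of the 17 fibrillar and meningeal genes (red) 14 lie left of 0 (53.2% of all genes), the 10 basement membrane genes (blue) lie between -0.42 and 0.43, and 1 probe set of Fmod lies beyond -1.

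Basement membrane genes were nearer to equal signal. Collagen IV is the network-forming collagen of all basement membranes. Col4a1 read 606 in CD47 KO and 598 in WT (0.02), and 0.03 by its second probe set. Col4a2, which is read from the opposite strand out of a window that shares 78 bases with that of Col4a1, gave 369.8 in CD47 KO and 417 in WT (-0.17). Col18a1, the source of endostatin, read 306 in CD47 KO and 302 in WT (0.02), but -0.20 by its second probe set. Col15a1, with 93.8 in CD47 KO and 73.0 in WT, lay below the floor on each array and was not measured further.

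The laminin chains were unequal. Lama2, the α chain of muscle and glial basement membranes, read 883 in CD47 KO and 873 in WT (0.02). Lama4, the α chain of endothelial laminin, read 595 in CD47 KO and 634 in WT (-0.09). Lamb2 was close to these, with 624 in CD47 KO and 675 in WT (-0.12). Lower signals were seen for Lamc1, the γ chain shared by most laminins, with 394 in CD47 KO and 526 in WT (-0.42) and the same direction by its second probe set (-0.46). Lamb1 read 211 in CD47 KO and 282 in WT (-0.42) by its one probe set above the floor.

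The nidogens, which bridge laminin and collagen IV, went opposite ways. Nid1 read 3022 in CD47 KO and 3731 in WT (-0.30), with -0.08 by its second probe set. Nid2 read 181 in CD47 KO and 134 in WT (0.43), with its one probe set near the floor.

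Set against each other, the fibrillar and meningeal genes had a median log2 ratio of -0.36 over 17 genes, and the basement membrane genes of -0.10 over 10. Of the first 14 were below 0 and 9 over 1.2-fold lower, and of the second 6 were below 0 and 3 over 1.2-fold lower. Over all measured genes 53.2% were below 0 and 18.6% over 1.2-fold lower, so that the 6 of 10 basement membrane genes lay near the share of all genes. The median difference of -0.26 depended on which genes were counted. With the fibrillar collagens and the 3 meningeal genes alone, against basement membrane genes without Col15a1 and Col18a1, the medians were -0.16 and -0.12 and the difference was -0.05. The genes thus left out of the first set were the 5 proteoglycans, with a median of -0.36, and the 3 fibril-associated collagens, with a median of -0.38. The fibrillar collagens alone had a median of -0.16, close to the -0.12 of the laminins. The difference over the full sets was -0.16 with the median over all probe sets of a gene or when the floor was raised to the 60th percentile, and -0.17 with genes above the floor on both arrays only. The median of the mean signals, which bears on noise and is no comparison of levels between genes, was 1403 for the fibrillar and meningeal genes and 524 for the basement membrane genes.

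**Figure D3:**
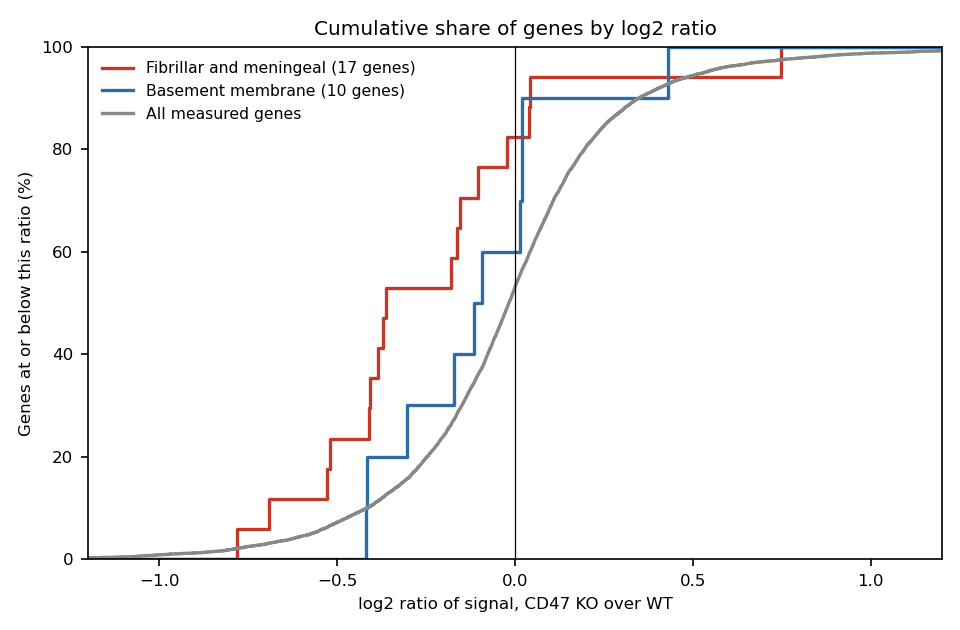
Share of genes (vertical, %) at or below each log2 ratio, with CD47 KO over WT on the horizontal axis, for 17 fibrillar and meningeal genes (red), 10 basement membrane genes (blue) and all 12473 measured genes (grey). The red curve runs left of the grey one over most of its course. The medians are -0.36 for the red, -0.10 for the blue and -0.02 for the grey curve.

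Collagen VI forms beaded microfilaments between fibrils and basement membranes. Col6a1 read 1273 in CD47 KO and 1552 in WT (-0.29), and Col6a2 read 2938 in CD47 KO and 4016 in WT (-0.45), with -0.26 by its second probe set. Fibronectin (Fn1), an adhesive protein that integrins bind, read 9743 in CD47 KO and 12196 in WT (-0.32), with -0.18 by its second probe set. Both collagen VI chains and Fn1 were thus lower in CD47 KO by each probe set measured.

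The fibulins join elastic fibres and basement membranes, and they did not share a direction. Fbln1 read 1130.4 in CD47 KO and 1661 in WT (-0.55), but its second probe set gave 1194 in CD47 KO and 1319 in WT (-0.14). Fbln5 read 769 in CD47 KO and 858 in WT (-0.16). Fbln2 read 144 in CD47 KO and 96.3 in WT, under the floor, at least 1.35-fold higher.

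Sparc, a collagen-binding glycoprotein also made by glia and endothelium, was higher in CD47 KO by both measured probe sets, with 25645 in CD47 KO and 21645 in WT (0.24) and 12034 in CD47 KO and 10171 in WT (0.24). Matrix Gla protein (Mgp), an inhibitor of calcification, read 14932 in CD47 KO and 17889 in WT (-0.26). Agreement in direction between probe sets was also counted over the members as a whole. In the 18 members with at least 2 probe sets past the floor in each array, all probe sets were below 0 in 14 and all above 0 in 3, and Col18a1 was the exception. Over all 56 probe sets of the members that passed the floor in each array, 45 were below 0 and 11 above. Several of these belong to the same gene, as the 6 of Fmod do. The matching shares over all genes and all probe sets were not computed, so that these counts have no background beside them.

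Genes for the making of collagen had a median near 0, with more of them above 0 than below. Of 19 measured genes for collagen modification, folding, secretion and cross-linking, 5 were below 0 and 14 above (53.2% and 46.8% of all genes). Their median was 0.04, beside -0.02 for all genes, and several of those above 0 were nearly equal, such as P4hb (0.02) and Mia3 (0.03). Of the list 3 were over 1.2-fold lower and 6 over 1.2-fold higher (18.6% and 14.5% of all genes). The lysyl hydroxylase gene Plod2 read 426 in CD47 KO and 237 in WT (0.84). Colgalt1, which adds galactose to collagen, read 855 in CD47 KO and 566 in WT (0.60), and Plod1 read 586 in CD47 KO and 395 in WT (0.57). The lower ones were Pcolce, which speeds the removal of the C-propeptide, with 5086 in CD47 KO and 6811 in WT (-0.42), the collagen chaperone gene Serpinh1 with 2328 in CD47 KO and 2839.7 in WT (-0.29), and Loxl1, a cross-linking enzyme (-0.27). Ppib, a folding enzyme of the endoplasmic reticulum, read 7575 in CD47 KO and 6461 in WT (0.23).

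Collagens outside the chosen members had a median of 0.06 over 16 measured genes, 7 below 0 and 9 above (53.2% and 46.8% of all genes). The transmembrane collagen gene Col25a1, known from neurons, was over 2-fold lower with 365 in CD47 KO and 745 in WT (-1.03), beside neuronal markers of which 8 of 9 were below 0 with a median of -0.98. Col9a1 read 554 in CD47 KO and 374 in WT (0.57), while Col9a3 had a ratio of -0.44 and Col4a5, a further collagen IV chain, one of 0.28. Other basement membrane genes had a median of -0.06 over 14 genes. Agrin (Agrn), a heparan sulphate proteoglycan of basement membranes, read 1169 in CD47 KO and 678 in WT (0.79). Perlecan (Hspg2), the other large one, read 627 in CD47 KO and 777 in WT (-0.31). Egfl7, from endothelium, had a ratio of -0.66 and Frem2 one of 0.58, while Smoc1, the brightest, was at -0.06.

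Further adhesive and elastic fibre genes had a median of -0.07 over 17 genes. Mfap5, a microfibril protein, read 922 in CD47 KO and 1385 in WT (-0.59), whereas its relative Mfap2 read 238 in CD47 KO and 133 in WT (0.84). Postn (periostin) read 1135 in CD47 KO and 726 in WT (0.65), and Sparcl1, a relative of Sparc made by astrocytes, read 24584 in CD47 KO and 27905 in WT (-0.18), opposite to Sparc. Efemp1, a fibulin relative, read 7265 in CD47 KO and 10749 in WT (-0.57). Among 5 further proteoglycans, Ecm2 (-0.47) and Omd (-0.46) were lower and the large proteoglycan gene Vcan, which is also a gene of oligodendrocyte precursors, read 1616 in CD47 KO and 1110.2 in WT (0.54). Prelp, the brightest of these, was nearly equal (-0.01).

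Receptors for collagens and laminins went both ways, with a median of -0.02 over 10 genes. Itga6, the α subunit of laminin-binding integrins, read 1874 in CD47 KO and 1082 in WT (0.79). The collagen receptor genes Mrc2 (-0.44) and Ddr2 (-0.39), both known from fibroblasts, were lower, while Ddr1, which oligodendrocytes express, read 19690.3 in CD47 KO and 16277 in WT (0.27).

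Markers of the cell types that make this matrix were read beside it. For the counts of all marker lists, the shares of all measured genes were 53.2% below 0, 46.8% above 0 and 18.6% over 1.2-fold lower. Of 20 measured markers of meninges and arachnoid 19 were below 0, with a median of -0.34 and 15 over 1.2-fold lower, and their summed signal was 58788 in CD47 KO and 73039 in WT. The lowest ratios were those of Alpl (-0.76), the arachnoid cadherin gene Cdh1 with 2425 in CD47 KO and 4069 in WT (-0.75), and the meningeal transcription factor gene Foxc2 with 1467 in CD47 KO and 2266 in WT (-0.63). Igf2, with 10166 in CD47 KO and 10906 in WT (-0.10), was nearly equal, Zic2 was above 0 (0.13), and the one unmeasured marker, Dpep1, lay below the floor on each array. The median of this marker list was close to that of the fibrillar and meningeal genes (-0.36). Perivascular macrophage markers (median -0.33) and endothelial markers (-0.28) lay near it too, while fibroblast markers were further from it (-0.10). Whether meningeal cells had a part in the lower matrix signal was not tested.

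Fibroblast markers had a median of -0.10 over 15 genes, 11 of them below 0, with a summed signal of 59086 in CD47 KO and 61173 in WT. The fibroblast transcription factor gene Twist1 read 179 in CD47 KO and 366 in WT (-1.03, over 2-fold lower), Mmp2 and Igfbp6 had ratios of -0.51 and -0.47, and Pdgfra, which oligodendrocyte precursors share, read 2929 in CD47 KO and 3043 in WT (-0.06). Gsn, the brightest of the list, was nearly equal, with 22287 in CD47 KO and 21332 in WT (0.06). So was Igfbp5, the next brightest, with 12886 in CD47 KO and 12954 in WT (-0.01). The summed signal rests largely on these genes.

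Endothelial markers, from cells that make much of the basement membrane, had a median of -0.28 over 10 genes, 8 of them below 0, with a summed signal of 17634 in CD47 KO and 21078 in WT. Kdr read 168 in CD47 KO and 289 in WT (-0.79), Abcb1a and Flt1 had ratios of -0.55 and -0.41, and Itm2a read 12791 in CD47 KO and 15282 in WT (-0.26). Markers of pericytes and smooth muscle had a median of 0.06 over 9 genes, with Acta2 at -0.56, Cspg4 at 0.58, Des at least at 0.88 and Rgs5, the brightest, at 0.03, and a summed signal of 7095 in CD47 KO and 7028 in WT. Perivascular macrophage markers were below 0 for 6 of 7 genes, led by Cd163 (-0.67), Pf4 (-0.53) and Cbr2 (-0.38), with a median of -0.33 and summed signals of 3605 in CD47 KO and 4614 in WT. Of the choroid plexus list 3 genes were measured, Ttr (-0.68), Kl (-0.51) and Clic6 (0.05), with summed signals of 904 in CD47 KO and 1319 in WT. Of the Schwann cell list Drp2 (0.30) and Egr2 (a bound, at least 0.79) were measured, with summed signals of 592 in CD47 KO and 409.7 in WT. The part of these cells in the matrix values was not tested.

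**Figure D4:**
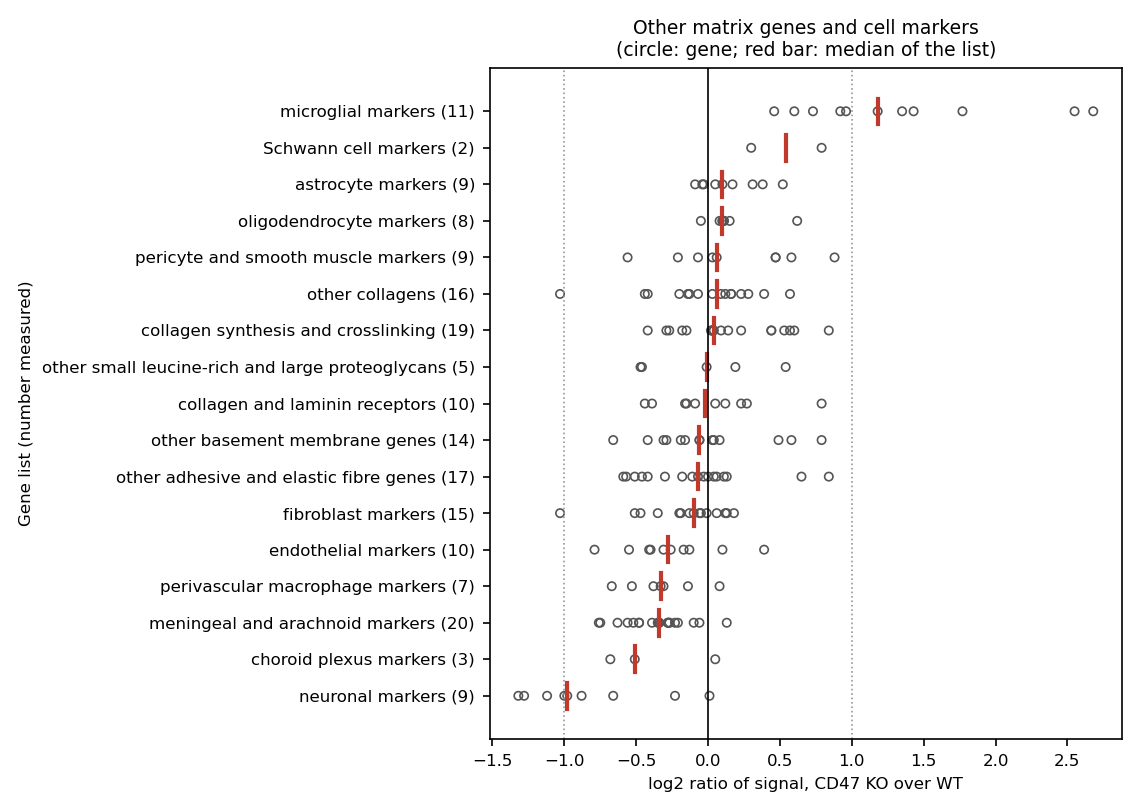
Log2 ratio of signal, CD47 KO over WT (horizontal), of the measured genes (circles) of 17 further lists of matrix genes and cell markers (vertical, number measured in brackets), with the median of each list as a red bar and dotted lines at 2-fold. Meningeal and arachnoid markers lie left of 0 for 19 of 20 genes (53.2% of all genes), with a median of -0.34, and the lists of other matrix genes scatter around 0.

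Strong signals in both pools came from the oligodendrocyte genes Mbp (55270.5 in CD47 KO and 51509.8 in WT) and Mobp (59026 and 53099 in the same order). They do not show how much neighbouring tissue each pool held, which was not tested. Of 8 oligodendrocyte markers 7 were above 0, with a median of 0.10 and summed signals of 212702 in CD47 KO and 196397 in WT. Opalin (0.62) had the highest ratio of these, and Mag and Mog were each at 0.11. Astrocyte markers had a median of 0.10 over 9 genes, led by Gfap (0.52), Sox9 (0.38) and Aqp4 (0.31), with S100b at -0.04 and summed signals of 134746 in CD47 KO and 124103 in WT. Microglial markers were above 0 for 11 of 11 genes, with a median of 1.18, a summed signal of 107319.6 in CD47 KO and 54778 in WT, and Trem2 as the largest (2.68). Fcrls (2.55) and Tyrobp (1.77) followed, and the brightest, Ctss, was at 0.73. The summed signal of the neuronal markers was 9138 in CD47 KO and 15992 in WT, with Nefm as the lowest ratio (-1.32), then Slc17a6 (-1.28), Gad1 (-1.12) and Rbfox3 (341 in CD47 KO and 682 in WT), and with Snap25, the brightest, at -0.98. The matrix ratios were small beside those of the microglial markers.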

How the data were processed

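Total RNA of the optic nerve and optic tract was pooled by genotype, and each pool was amplified by in vitro transcription from the 3′ end, labelled and run on 1 Affymetrix mouse genome array. The authors scanned the arrays with Command Console and processed them with Expression Console; the submitters' processing notes name MAS5, with no version given. The files as deposited hold, for each probe set, a linear MAS5 intensity, and on each array their 2% trimmed mean came to 500, so that each array had been scaled to a common target. MAS5 is noisy near background, which the floor limits.

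Of 45101 probe sets 64 controls were set aside. Symbols came from GEO's platform table, where 34945 probe sets had 1 symbol, 932 several and 9160 none; only the first were used. All 37 member symbols were found in the RefSeq gene table. Each gene was taken from its probe set with the highest mean log2 intensity, which left 18193 genes; 12473 of them passed the floor (50th percentile of both arrays) on at least 1 array. A 2-fold difference is the threshold of the study, and 1.2-fold and 1.5-fold were added. The genes named are all members and, of each other list, the 3 with the largest absolute log2 ratio, the brightest and, where they were 5 or fewer, all over 2-fold; a few others were added with their values known. The members, sets and lists were chosen with earlier results of these data known. With 1 array per genotype no test was possible, and precision is limited by that number. The steps were tested on simulated data with known differences. Python 3.11.15, pandas 2.3.3, statsmodels 0.14.6 (loess) and matplotlib 3.10.9 were used. Alternatives were other floors, other normalisations, other choices of probe set and other definitions of the sets.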

Additional observations from a re-analysis of the deposited data

How the results depend on the processing

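The medians of the members and of both sets, and the difference between the sets, stayed below 0 under every alternative run. The median over all members ranged from -0.27 to -0.14, that of the fibrillar and meningeal genes from -0.39 to -0.16 and that of the basement membrane genes from -0.12 to -0.07. Between 22 and 27 members were below 0 and between 13 and 17 over 1.2-fold lower, out of 27 to 36 measured members by setting. The share of all genes below 0 ran from 46.6% (median centring) to 53.7% (floor at the 40th percentile). The share of all genes over 1.2-fold lower varied more, from 12.4% (mean signal over 500) to 27.4% (no floor), beside 18.6% in the main setting. The 22 came from the setting with only 27 members, those of a mean signal over 500. None was over 2-fold in any setting. With each gene taken as the median over its probe sets, the fibrillar and meningeal median was -0.26 and the difference between the sets -0.16. The difference was also -0.16 when the floor was raised to the 60th percentile. With the narrow sets of fibrillar collagens and meningeal genes the median was -0.16 and the difference -0.05; this follows from the genes left out.

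Settings chosen after seeing the data were genes above the floor on both arrays only (difference -0.17) and genes of a mean signal over 500 only. In the second, 13 of 27 members were over 1.2-fold lower, beside 12.4% of all genes of that brightness. Median centring moved the median of all genes to 0.02. Of 272 values of single members under the alternatives, the 2 largest shifts were those of Col11a1 and Col5a1: Col11a1 was at least 0.38 under the 60th percentile floor, and Col5a1 was -0.47 by the median over its probe sets. Of members near 0, Col18a1 (-0.09 by the median over probe sets), Col5a2 (0.02 with median centring) and Ptgds (-0.01 with loess) changed sign, and none over 1.2-fold did. Col11a1, Col14a1, Nid2 and Fbln2 lay close to the floor, where the signal limits the precision. No paired analysis was possible because there was 1 array per genotype, and for the same reason no replicate could be left out.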

Other observations

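Some members lie beside related genes in the genome, and their neighbours were read in the RefSeq gene order. Lum, next to Dcn, shared the direction of Dcn (-0.18 and -0.37). Omd, next to Ogn, read 1173 in CD47 KO and 1611 in WT (-0.46), while Nol8 on the other side of Ogn had a log2 ratio of 0.15. Slc22a8, an organic anion transporter gene next to Slc22a6, read 941 in CD47 KO and 1448 in WT (-0.62). Prelp, the proteoglycan gene next to Fmod, was nearly equal, with 2521 in CD47 KO and 2533 in WT (-0.01). Col3a1 and Col5a2 are neighbours and had ratios of -0.16 and -0.02. These genes were picked after their values were seen, and no test was run on them.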
